A study of Mus musculus with 16 samples.

Results

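The colony-stimulating factors and their receptors were described in mouse bone marrow-derived macrophages (BMDMs) exposed to tumor cell factors and kinase inhibitors. The family was taken as 8 genes, matched by symbol to the gene identifiers of the deposited count table, which holds 55487 genes. The ligands were Csf1, Csf2 and Csf3, which encode M-CSF, GM-CSF and G-CSF. The receptor chains were Csf1r, Csf2ra, Csf2rb, Csf2rb2 and Csf3r. All 8 passed the filter on low values, which kept 12372 genes with a level above 1 CPM (counts relative to the library total) in at least 2 samples. Csf2 passed it through 3 samples only, 1 of CM + Rux and both of the 2 h group, and Csf3 only through samples with CM.

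RNA sequencing covered 16 samples in 6 groups. All cells came from wild-type Balb/c mice 8 weeks old, and the labels give the source as bone marrow and the tissue as macrophages. The groups were BMDMs in DMEM, the plain medium (2 samples), DMEM with ruxolitinib (DMEM + Rux, 3), conditioned media of 4T1 cells (CM, 3), CM plus ruxolitinib (0.5 μM, CM + Rux, labelled 4 h, 3), CM plus both ruxolitinib (0.5 μM) and IKK-16 at 0.8 μM (CM + Rux + IKK-16, 3) and CM plus ruxolitinib (0.5 μM) labelled 2 h (2). 4T1 is a mouse mammary tumor cell line, ruxolitinib blocks JAK1 and JAK2, and IKK-16 blocks the IKK enzymes upstream of NF-κB. The cells were serum starved for 2 h and, per the methods, treated for 4 h before RNA was taken. By the same methods, ruxolitinib used with CM was already present from the pre-treatment, whereas IKK-16 came together with the CM. The meaning of the 2 h label, the dose of ruxolitinib in DMEM, and the growth factor in which the BMDMs were raised are not given in the sources used here. The deposited counts summed to between 18449388 and 46215853 fragments per sample.

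M-CSF, made by many tissues and by macrophages themselves, acts through the tyrosine kinase Csf1r and keeps macrophages alive and differentiated. GM-CSF binds the α chain Csf2ra, which signals together with a common β chain, Csf2rb, through JAK2 and STAT5. The mouse has a close copy of that chain, Csf2rb2, known for its part in the IL-3 receptor. G-CSF drives the making of neutrophils and acts through Csf3r, a receptor that also signals through JAK kinases.

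Levels are given in CPM, scaled between samples by relative log expression (RLE). All genes kept were fitted together with edgeR's quasi-likelihood test, and every adjusted p below is a Benjamini-Hochberg value over those genes. A gene was called higher or lower, and is said to have risen or fallen, where the adjusted p was under 0.05 and the log2 fold change was beyond 0.5. Errors on log2 fold changes are standard errors (SE). A count of 0 leaves room for up to 3 counts. Where no sample of a group held more than that, a fold is given as a bound against the highest level that 3 counts make in that group's samples, and no fold is given where both groups were at that limit. Such limits cover counting error only. The labels do not say whether replicates were separate cultures or animals, so the p-values measure the spread between these samples, which may be technical. In bulk RNA, fewer cells that express a gene and less RNA per cell cannot be told apart. Levels written with ± are the mean and SD over the samples of a group, 2 in DMEM and at 2 h and 3 elsewhere.

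Of the 7 members with a test in CM against DMEM, 5 rose (Csf1, Csf3, Csf2rb, Csf2rb2 and Csf3r) and 1 fell (Csf1r), while Csf2ra was not called. This comparison called 45.0% of all genes tested, 20.9% as higher and 24.1% as lower, so a change was common among genes in general. With ruxolitinib added to CM, Csf1 and Csf2 rose and Csf3r fell, 3 of 8 members, where 3.33% of all genes were called, 1.2% as higher and 2.13% as lower. With IKK-16 on top of ruxolitinib, Csf2 fell, 1 of 8 members, where 7.74% of all genes were called, 4.07% as higher and 3.66% as lower. Csf2, counted in both inhibitor contrasts, passed the filter only through samples of CM + Rux and the 2 h group, where it was high. Csf3, counted in CM against DMEM, passed it only through samples with CM. Ruxolitinib in DMEM moved none of the 6 members with a test past the thresholds, where 0.97% of all genes were called. These comparisons share samples: the CM samples serve both the contrast with DMEM and that with CM + Rux, and the CM + Rux samples serve both inhibitor contrasts.

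**Figure D1:**
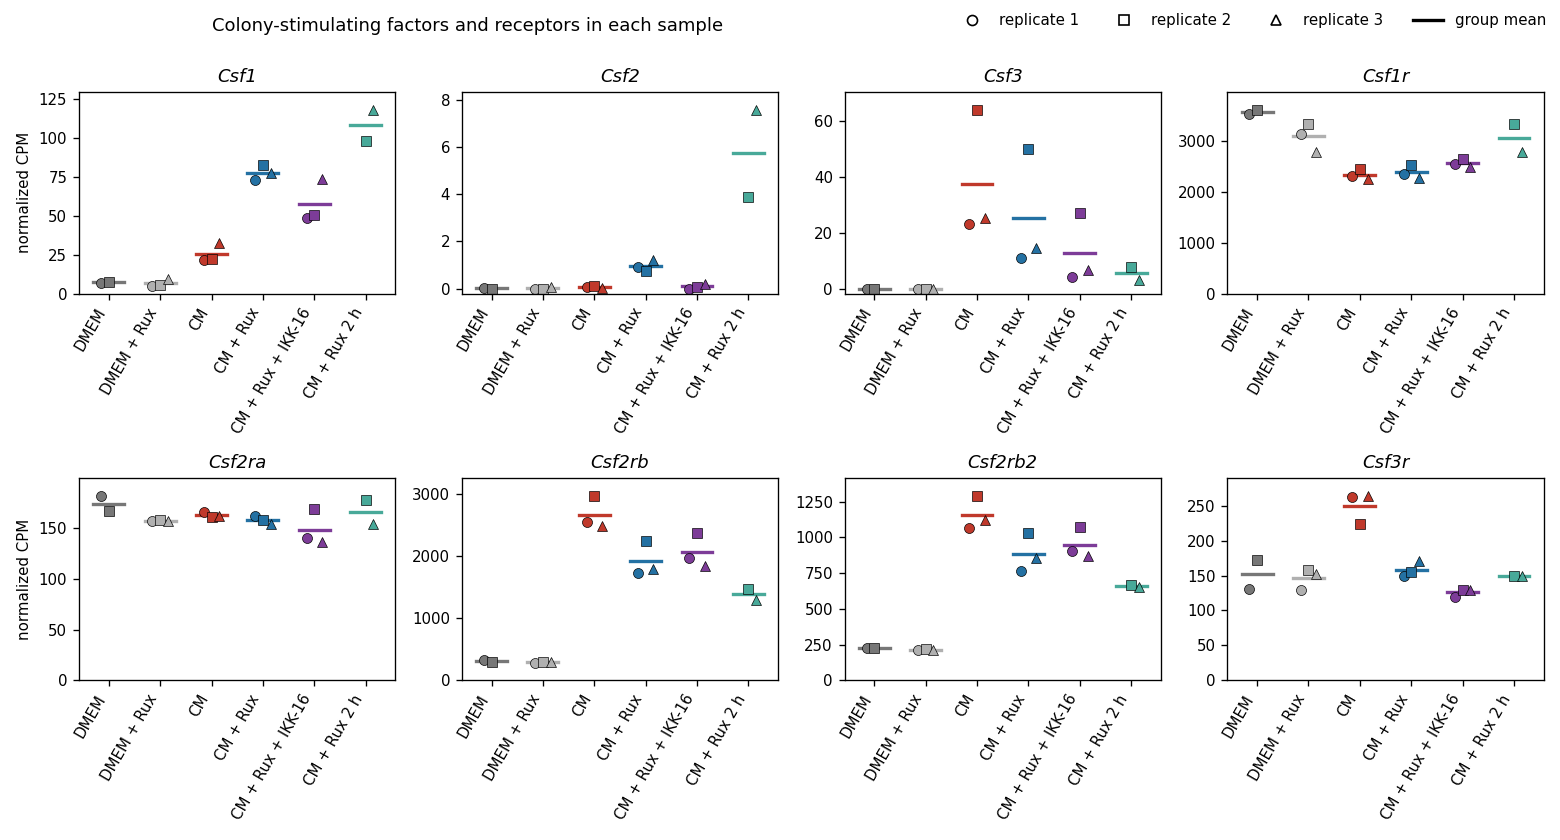
Each panel plots 1 member, with normalized CPM on a linear axis against the 6 groups. Symbols are single samples by replicate number and bars are group means. Csf1 was highest in the samples with CM and ruxolitinib, Csf2 stood out in CM + Rux and at 2 h, Csf3 was at 0 in all 5 samples without CM, and the β chains were low in DMEM and high in CM.

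Csf1 (ENSMUSG00000014599, chromosome 3 from 107741048 to 107760469, minus strand, GRCm38) was the ligand found in every sample. It had 7.30 and 7.53 CPM in the 2 DMEM samples and 22.0, 22.6 and 32.5 CPM in the CM samples. With ruxolitinib in CM it had 73.2, 82.8 and 77.5 CPM. The 3 sets of samples did not overlap, and each step was upward. Csf1 rose by a log2 fold change of 1.80 (SE 0.26, adjusted p = 4.9e-05) in CM over DMEM, and by a further 1.595 (SE 0.21, adjusted p = 0.00061), a 3.02-fold difference, in CM + Rux over CM. Between samples of the same replicate number, CM + Rux was above CM in 3 of 3 pairs, by 1.24 to 1.85 on the log2(CPM + 0.5) scale.

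In DMEM, ruxolitinib left Csf1 at 4.99, 5.76 and 9.62 CPM. These samples lay on both sides of the DMEM samples, and the log2 fold change was -0.12 with a 95% interval from -0.71 to 0.47. The effect of ruxolitinib on Csf1 was larger in CM than in DMEM by 1.71 on the log2 scale (SE 0.34, adjusted p = 0.046), in a comparison that called 0.412% of all genes. That call was close to the threshold: it was lost in 9 of the 11 fits with a single sample left out, with adjusted p from 0.013 to 0.21, and with the replicate number in the model as a block the difference was 1.93 (adjusted p = 0.00051). Against DMEM + Rux, Csf1 in CM + Rux was higher by 3.51 (SE 0.24, adjusted p = 2.1e-08), in a comparison that called 47.3% of all genes.

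Adding IKK-16 gave Csf1 levels of 49.0, 50.8 and 73.6 CPM. The highest of these reached into the range of the CM + Rux samples, and the log2 fold change was -0.43 (SE 0.21, adjusted p = 0.19). With the replicate block it was -0.47 (adjusted p = 0.0086), which is short of the fold change threshold. All 3 samples with IKK-16 stayed above the CM samples, and Csf1 was higher than in CM by 1.17 (SE 0.21, adjusted p = 0.0015), where 12.7% of all genes were called. The 2 samples labelled 2 h held 98.4 and 118 CPM, above every CM + Rux sample, with a log2 fold change of 0.47 that did not pass (adjusted p = 0.11). With the replicate block that change was 0.36 (adjusted p = 0.035), short of the fold change threshold.

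The promoter of Csf1 is printed because Csf1 is the ligand that rose in CM and again with ruxolitinib. The RefSeq promoter table (GRCm38.p6) held 5 of the 8 members, without Csf3, Csf1r and Csf2rb. The 250 bases before the start of Csf1, at chr3:107760470-107760719 on the minus strand, read 5′ to 3′ with matches to an NF-κB motif (GGG and CC with 5 bases of any kind between them) on either strand in capitals:
Csf1: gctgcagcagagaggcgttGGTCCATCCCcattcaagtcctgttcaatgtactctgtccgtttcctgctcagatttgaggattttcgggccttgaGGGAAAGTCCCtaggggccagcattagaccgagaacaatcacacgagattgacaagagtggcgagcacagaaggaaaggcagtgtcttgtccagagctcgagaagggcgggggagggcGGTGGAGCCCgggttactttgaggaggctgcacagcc
The window held 4 matches, and the middle run in capitals is a pair that overlaps, 1 on each strand, from -155 to -145 relative to the start. Of all 32851 promoter windows of this length, 45.8% hold these letters, so a match is common. Csf2ra held 2 matches, also an overlapping pair, and Csf3r held 1. The windows of Csf2, which lies 233 bases from the gene as Ensembl places it, and of Csf2rb2 held none. Neither TTCNNNGAA, a STAT motif found in 7.02% of windows, nor TGANTCA, an AP-1 motif found in 6.75%, was in the Csf1 window. The only match to the STAT letters among these members was TTCTGAGAA in the window of Csf2rb2, from -15 to -7 relative to its start. No binding was measured here, and a match describes letters only.

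Csf2 (ENSMUSG00000018916, chromosome 11 from 54247271 to 54249667, minus strand) had few counts in most groups and is given as counts. The CM samples held 1, 3 and 1 counts, and the DMEM samples 1 and 0. With ruxolitinib in CM the counts were 34, 31 and 24, or 0.92, 0.75 and 1.22 CPM. The CM + Rux samples were all far above the CM samples, which were at the limit of 3 counts. Csf2 was at least 5.77-fold higher in CM + Rux than in CM (adjusted p = 0.0078). It was at least 6.95-fold higher than in DMEM + Rux (adjusted p = 7.4e-05), whose samples held 0, 0 and 2 counts.

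With IKK-16 added, Csf2 had 0, 2 and 7 counts. All of these samples lay below the CM + Rux samples, and Csf2 fell by 3.39 on the log2 scale (SE 0.64, adjusted p = 0.0037). The samples labelled 2 h held 141 and 130 counts, or 3.89 and 7.60 CPM, the highest of the series. Against CM + Rux they were higher by 2.59 (SE 0.46, adjusted p = 0.00063), in a comparison that called 23.3% of all genes. Csf2 failed the filter and had no test where the 2 h samples were left out, since only 1 other sample was above 1 CPM. No fold is given for CM against DMEM, for ruxolitinib in DMEM or for IKK-16 against CM, where the samples were at or near the limit.

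Csf3 (ENSMUSG00000038067, chromosome 11 from 98701263 to 98703629, plus strand) had 0 counts in every sample without CM. The CM samples had 23.1, 64.2 and 25.2 CPM. Csf3 was at least 306-fold higher in CM than in DMEM (adjusted p = 0.00064). Leaving out CM replicate 2 lowered that bound to at least 197-fold. The CM + Rux samples had 10.9, 50.2 and 14.5 CPM, and those with IKK-16 had 4.18, 27.0 and 6.64 CPM. In each of these 3 groups replicate 2 was the highest by far, so the groups overlapped.

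Without regard to replicate number, Csf3 differed by -0.57 between CM + Rux and CM (SE 0.73, adjusted p = 0.84) and by -1.02 between CM + Rux + IKK-16 and CM + Rux (SE 0.75, adjusted p = 0.42). Within replicate numbers the order was the same in 3 of 3 sets: CM above CM + Rux above CM + Rux + IKK-16. Same-numbered samples deviated together over all genes, so the replicate block applies, and with it Csf3 fell with ruxolitinib, at -0.73 (adjusted p = 0.022), and again with IKK-16, at -1.08 (adjusted p = 0.0016). The first of these calls was lost when any 1 sample other than CM replicate 2 was left out, with adjusted p up to 0.11. The second was kept without each of the 6 samples in turn. Against CM, Csf3 with both inhibitors was at -1.59 without the block (adjusted p = 0.16) and fell by 1.81 with it (adjusted p = 3.5e-05). In the blocked model, 6.02% of all genes were called for CM + Rux against CM, 10.8% for the step to IKK-16 and 15.6% for both inhibitors against CM alone.

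**Figure D2:**
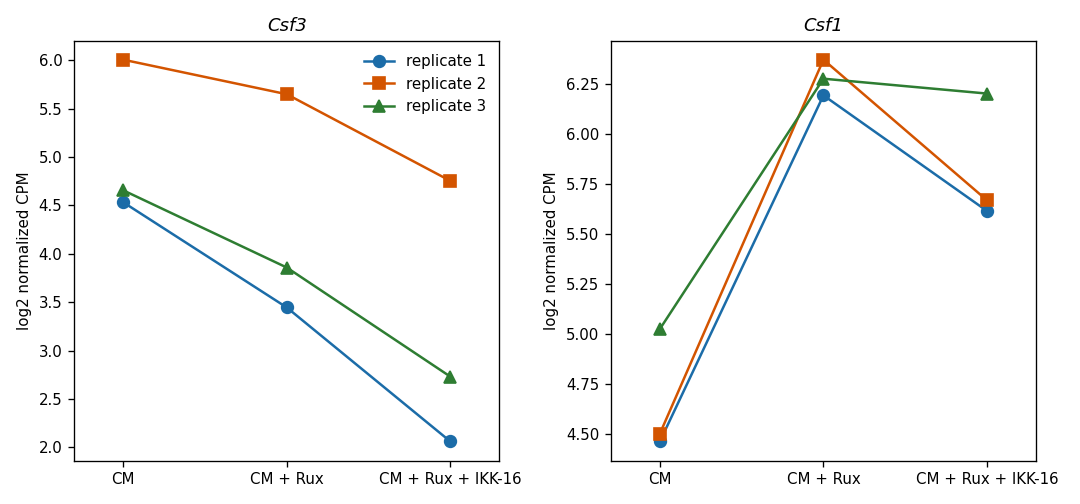
Lines join samples of the same replicate number across CM, CM + Rux and CM + Rux + IKK-16, with log2 normalized CPM on the vertical axis, for Csf3 on the left and Csf1 on the right. All 3 lines of Csf3 go down at both steps, with replicate 2 above the others throughout, while all 3 lines of Csf1 go up at the first step.

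The samples labelled 2 h had 7.71 and 3.16 CPM of Csf3, below every CM + Rux sample. The log2 fold change was -2.16 (adjusted p = 0.092), and with the block Csf3 fell by 2.51 (adjusted p = 1.8e-05), where 25.5% of all genes were called. Csf2 and Csf3 thus stood in opposite order between the group labelled 2 h and the CM + Rux group: Csf2 was higher at 2 h, and Csf3 was lower.

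AU-rich repeats in the 3′ UTR are a known mark of short-lived cytokine mRNAs, which proteins such as Zfp36 bind. The 30 bases of each ligand's 3′ UTR with the most ATTTA pentamers are shown to compare them, 5′ to 3′ as DNA from the GENCODE transcripts, with the pentamers in capitals:
Csf2: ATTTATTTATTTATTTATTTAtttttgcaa
Csf3: ATTTAtctctATTTAatATTTAtgcatatt
Csf1: ATTTAaatatctATTTAaaaaataggaagc
Overlaps included, the windows held 5 pentamers in Csf2, 3 in Csf3 and 2 in Csf1. Of 20831 genes with a 3′ UTR, 0.226% had a window of 30 bases with at least 5, 2.29% with at least 3 and 17.2% with at least 2. Csf1r had at most 1 in such a window, and the UTRs of Csf2ra, Csf2rb, Csf2rb2 and Csf3r held none. Stability of the mRNA was not measured.

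**Figure D3:**
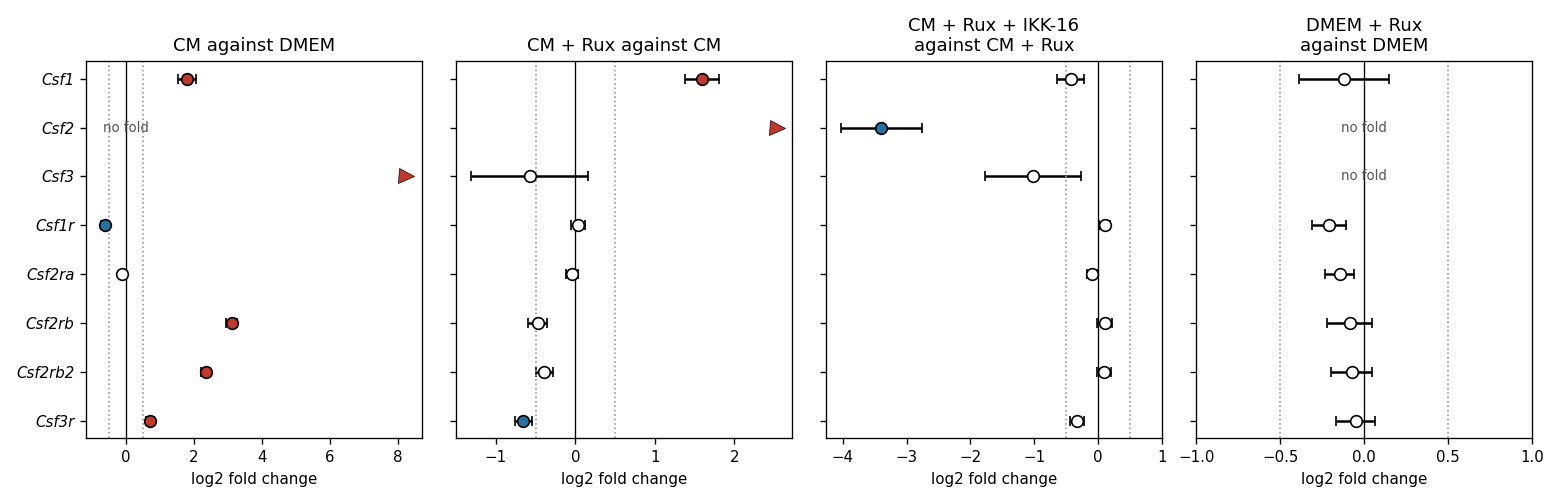
Points are log2 fold changes of the 8 members with bars of 1 SE in 4 comparisons, red where called higher, blue where called lower and white where not called. Dotted lines mark the threshold of 0.5 in either direction, triangles are lower bounds against a group at the limit of 3 counts, and the axes differ in range. CM moved 6 members past the thresholds, ruxolitinib in CM 3, IKK-16 1 and ruxolitinib in DMEM 0 of the 6 tested. Calls are those without the replicate block.

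Csf1r (ENSMUSG00000024621, chromosome 18 from 61100598 to 61132149, plus strand), the M-CSF receptor and a marker of macrophages, was the most abundant member per length in every group. It had 3521 and 3599 CPM in DMEM and 2307, 2435 and 2253 CPM in CM. The groups did not overlap, and Csf1r fell by 0.61 on the log2 scale (SE 0.10, adjusted p = 0.00013). By total counts alone the difference was -0.92, since RLE scaling moved log2 fold changes here upward, with a median shift of 0.31.

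Ruxolitinib in CM left Csf1r at 2351, 2519 and 2273 CPM, within the range of the CM samples or just above it. The log2 fold change was 0.03, with a 95% interval from -0.17 to 0.23. With IKK-16 the samples had 2548, 2649 and 2484 CPM, a difference of 0.10 from CM + Rux (adjusted p = 0.49). Both samples labelled 2 h, at 3327 and 2771 CPM, were above all samples of CM + Rux, by 0.36 (SE 0.10, adjusted p = 0.013), a difference short of the fold change threshold. In DMEM, ruxolitinib gave 3136, 3332 and 2779 CPM, all below the DMEM samples, and the difference of -0.21 did not pass (adjusted p = 1).

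Csf2ra (ENSMUSG00000059326, chromosome 19 from 61223957 to 61228429, minus strand), the α chain that binds GM-CSF, was the steadiest member. It lay between 136 and 181 CPM in all 16 samples, with 181 and 167 CPM in DMEM and 166, 161 and 162 CPM in CM. The CM samples lay just below the DMEM samples. The log2 fold change was -0.10 (95% interval from -0.29 to 0.10), and -0.41 by total counts alone, so its place relative to other genes depends on the scaling. It was called in none of the 8 comparisons under the RLE scaling. For ruxolitinib in CM the interval was from -0.22 to 0.14.

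The β chains behaved otherwise. Csf2rb (ENSMUSG00000071713, chromosome 15 from 78325752 to 78353847, plus strand) had 321 and 294 CPM in DMEM and 2545, 2963 and 2489 CPM in CM. Csf2rb2 (ENSMUSG00000071714, chromosome 15 from 78282507 to 78305721, minus strand) had 229 and 224 CPM in DMEM and 1066, 1287 and 1121 CPM in CM. Every CM sample was several times above every DMEM sample for both. Csf2rb rose by 3.12 (SE 0.15, adjusted p = 2.7e-09), an 8.67-fold difference, and Csf2rb2 by 2.35 (SE 0.13, adjusted p = 1.1e-08).

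With ruxolitinib in CM, Csf2rb had 1725, 2241 and 1797 CPM and Csf2rb2 had 766, 1029 and 858 CPM. All of these were below the CM samples of the same gene. The differences were -0.47 for Csf2rb (SE 0.12, adjusted p = 0.037) and -0.39 for Csf2rb2 (SE 0.11, adjusted p = 0.060), neither beyond the fold change threshold. With the replicate block they were -0.48 (adjusted p = 0.0022) and -0.39 (adjusted p = 0.0044), also short of that threshold. With IKK-16, Csf2rb had 1965, 2380.1 and 1844 CPM, and the 95% interval of its difference from CM + Rux was from -0.16 to 0.37. Both chains stayed high under ruxolitinib: against DMEM + Rux, where Csf2rb had 281, 292 and 296 CPM, Csf2rb was higher by 2.73 (SE 0.13, adjusted p = 8.1e-10) and Csf2rb2 by 2.04 (SE 0.11, adjusted p = 3.7e-09).

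The samples labelled 2 h lay between DMEM and CM + Rux for both β chains. They had 1474 and 1293 CPM of Csf2rb and 664 and 655 CPM of Csf2rb2. Against CM + Rux the differences were -0.47 and -0.42 (adjusted p = 0.013 and 0.015), short of the fold change threshold.

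Csf2rb and Csf2rb2 are near copies and neighbours on chromosome 15. Their coding sequences were 95.2% identical over 2628 aligned bases, and 18.4% of the 50-base windows of Csf2rb were found unchanged in Csf2rb2. Fragments with a low mapping quality were not counted, and how the rest were split between this pair is uncertain. Over the 16 samples the log2 levels of this pair had a Pearson r of 0.999, the highest of either gene with any gene tested.

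Per length, in TPM (counts divided by gene length, relative to the library total), the order of the receptor chains differed between DMEM and CM. In DMEM, Csf1r had a mean of 2335 TPM, Csf2ra 229, Csf2rb2 181, Csf2rb 160.02 and Csf3r 159 TPM. In CM, Csf1r had 1226, Csf2rb 1110.0, Csf2rb2 740.1, Csf3r 211 and Csf2ra 172 TPM. Csf1r ranked 38th of all genes per length in DMEM and 98th in CM, while Csf2rb moved from rank 911 to rank 106.

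The ratio of the β chain to the α chain per length was 0.696 to 0.698 in the DMEM samples and 6.06 to 7.28 in the CM samples. It was 4.196 to 5.61 in CM + Rux, 5.35 to 5.57 with IKK-16, and 3.27 to 3.32 in the samples labelled 2 h. All samples with CM were thus above all samples without it, and DMEM + Rux stayed at 0.707 to 0.747. The lengths are those of all exons merged, so such ratios between genes carry the error of that length, while their order between groups does not. Of the ligands in CM, Csf3 had a mean of 79.1 TPM, Csf1 14.8 TPM and Csf2 0.23 TPM. In CM + Rux, Csf3 had 53.4 TPM, Csf1 45.2 TPM and Csf2 3.71 TPM, and the ranges of Csf3 and Csf1 overlapped there.

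**Figure D4:**
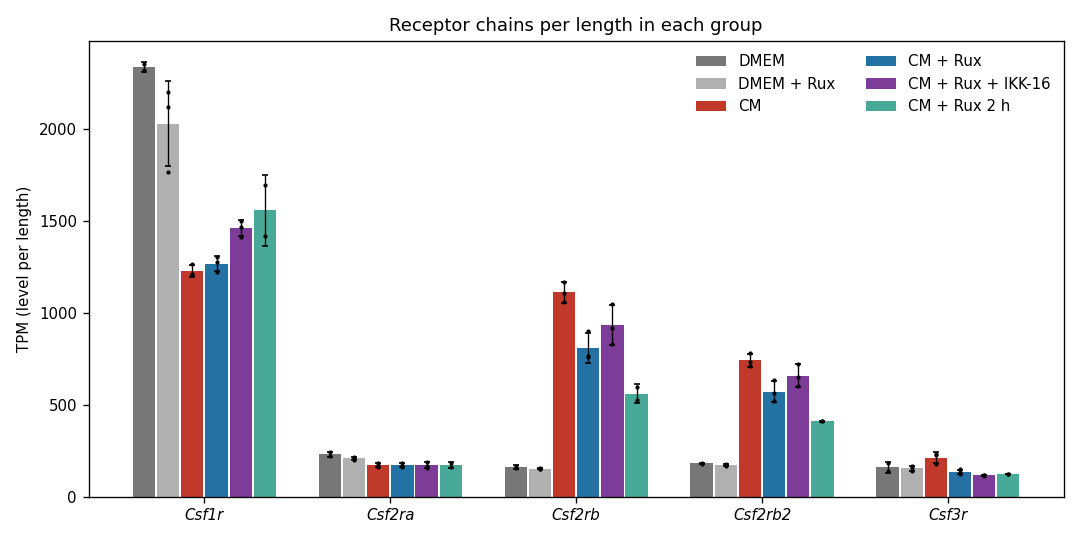
Bars are mean TPM of the 5 receptor chains in the 6 groups on a linear axis from 0, with error bars of 1 SD and dots for samples. Csf1r is the tallest bar in every group, Csf2rb rises from 160.02 TPM in DMEM to 1110.0 TPM in CM, and Csf2ra stays between 169 and 229 TPM.

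Csf3r (ENSMUSG00000028859, chromosome 4 from 126024550 to 126044440, plus strand), the G-CSF receptor, had 131 and 172 CPM in DMEM and 263, 224 and 263 CPM in CM. The CM samples were all above the DMEM samples, and Csf3r rose by 0.72 (SE 0.12, adjusted p = 0.00014). By total counts alone the difference was 0.42 and was not called. With ruxolitinib in CM it had 150.1, 155 and 171 CPM, below every CM sample and within the range of DMEM. Csf3r fell by 0.66 (SE 0.11, adjusted p = 0.0023), and it was lower in 3 of 3 pairs of the same replicate number.

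With IKK-16 as well, Csf3r had 119.9, 130.1 and 129 CPM, below every CM + Rux sample. The difference from CM + Rux was -0.33 (SE 0.11, adjusted p = 0.054), and from CM it was -0.98 (SE 0.11, adjusted p = 3.2e-05). With the replicate block the difference from CM + Rux was -0.33 (adjusted p = 0.015), short of the fold change threshold. In DMEM + Rux it had 129, 158 and 152 CPM, a difference of -0.05 from DMEM with a 95% interval from -0.31 to 0.21. The effect of ruxolitinib in CM minus that in DMEM was -0.61 (SE 0.16, adjusted p = 0.12). With the replicate block it was -0.58 (adjusted p = 0.026) and was called, in a model that called 3.59% of all genes.

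Csf3r is also a defining receptor of neutrophils, and 11 neutrophil markers were summed beside it. Their sum was 9.33 to 10.2 CPM in CM, 2.42 to 3.60 CPM in DMEM, 5.91 to 7.43 CPM in CM + Rux, 3.48 to 6.79 CPM with IKK-16, 2.96 to 5.96 CPM in DMEM + Rux and 4.09 to 9.29 CPM at 2 h. Like Csf3r it was highest in CM and lower with the inhibitors, but it was lowest in DMEM, where Csf3r was not, and its part in the result was not tested. The most abundant of these markers was Mmp8, with a mean of 4.63 CPM, Ly6g and Retnlg were at 0 in every sample, and 6 of the 11 had at most 3 counts in any sample.

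The macrophage markers fit the label: 10 of 10 were measured, and their sum was 38209 to 55004 CPM, led by Lyz2 with a mean of 33484 CPM. Markers of epithelial and 4T1 tumor cells, which could come with the conditioned media, summed to 0.77 to 1.45 CPM in CM, 0.04 to 0.12 CPM in DMEM and 0.12 to 0.92 CPM in CM + Rux. Their most abundant gene was Krt18, Krt14 and Krt5 were at 0, and Krt7 and Epcam had at most 3 counts. Csf1 and Csf3 moved from DMEM to CM together with this sum, and its part in their change was not tested.

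Other marker lists were low as well. Dendritic cell markers, led by Ccr7, summed to 1.51 to 2.28 CPM in DMEM, 4.45 to 7.01 CPM in CM, 7.28 to 11.1 CPM in CM + Rux, 3.61 to 5.23 CPM with IKK-16 and 13.6 to 17.2 CPM at 2 h, highest at 2 h and next in CM + Rux, as Csf1 and Csf2 were, and their part in the results on both genes was not tested. Fibroblast markers, led by Pdgfrb, summed to 16.1 to 33.9 CPM over all samples, T and NK cell markers, led by Cd4, to 6.76 to 14.8 CPM, B cell markers to 0.12 to 1.23 CPM, and markers of mast cells, basophils and eosinophils to at most 0.24 CPM.

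Relatives of the family were few. Of 9 listed, Il3ra, Flt3l and Kitl passed the filter. Il3 and Il5ra had 0 counts in all samples, Il5 at most 1, Flt3 at most 5, Kit at most 14, and Il34, the other ligand of Csf1r, at most 35. Kitl, the ligand of Kit, had 26.8 ± 9.76 CPM in DMEM and 2.40 ± 0.36 CPM in CM, a log2 fold change of -3.47 (SE 0.32, adjusted p = 6.7e-07). Flt3l, the ligand of Flt3, fell by 0.69 (adjusted p = 0.0054), and with IKK-16 it rose by 0.61 over CM + Rux (adjusted p = 0.030). With the replicate block Kitl rose there as well, by 0.91, where 10.8% of all genes were called. Without the block Kitl rose by 1.15 in CM + Rux + IKK-16 over CM, where 12.7% of all genes were called. It rose by 2.13 at 2 h over CM + Rux, where 23.3% were called. Il3ra, the α chain of the IL-3 receptor that pairs with the β chains, had 34.3 ± 2.31 CPM in DMEM and 30.5 ± 1.21 CPM in CM, a difference of -0.17 (adjusted p = 0.12). As with Csf2ra, an α chain differed little while the β chains rose.

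Of 28 genes that carry the signal of these receptors, all tested, 10 rose and 5 fell in CM against DMEM, and 4 fell with the replicate block. Their median log2 fold change was 0.28, beside -0.005 over all genes, of which 20.9% rose and 24.1% fell. Src, a kinase downstream of Csf1r, rose the most, from 17.8 ± 2.82 to 299.5 ± 32.7 CPM, by 4.07 (adjusted p = 1.9e-09). Gab3, an adaptor of the M-CSF receptor, fell the most, from 7.49 ± 2.90 to 0.69 ± 0.11 CPM, a log2 fold change of -3.42 (adjusted p = 1.9e-06). Jak1, Jak2, Stat3 and Stat5a, picked out after their values were seen, were among those that rose. The gene lists were chosen with earlier results of these data known, so their counts beside those of all genes are descriptions only.

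Stat5a, the transcription factor downstream of GM-CSF, was at 120 ± 9.94 CPM in CM and 119 ± 14.7 CPM in CM + Rux, a difference of -0.01, with a median over the 28 genes of -0.02. With IKK-16, 5 of 28 fell and 1 rose, where 3.66% of all genes fell and 4.07% rose. Stat5a fell the most, to 47.8 ± 3.35 CPM, a log2 fold change of -1.31 (adjusted p = 9.5e-06), and Gab3 rose by 1.29 (adjusted p = 0.020). Jak2, Src and Stat3 were among the others that fell.

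Of 17 genes that restrain these receptors, 7 rose and 3 fell in CM, where 20.9% of all genes rose and 24.1% fell. Their median was 0.44, and 0.19 with the replicate block, beside -0.005 over all genes. Cish, a STAT5-induced inhibitor of cytokine receptors, rose from 0.135 ± 0.018 to 135 ± 12.4 CPM, by 9.90 (SE 0.52, adjusted p = 5e-09). The DMEM samples held only 3 and 5 counts of Cish, at or near the limit, so the size of that fold is uncertain. Cblb, a ubiquitin ligase, fell the most, with -1.08 (adjusted p = 0.00093). Ruxolitinib in CM lowered 4 of 17 (Cish, Dusp6, Ptpn1 and Socs2) and raised none, where 2.13% of all genes fell, with a median of -0.44 beside 0.007 over all genes. With the replicate block 6 fell, where 6.02% of all genes were called in either direction. Socs2 fell the most, from 11.4 ± 2.88 to 3.07 ± 1.48 CPM, a log2 fold change of -1.90 (adjusted p = 0.014), and Cish fell by 1.05 (adjusted p = 0.018).

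With IKK-16, 4 of the 17 fell and Inpp5d, the phosphatase SHIP1, rose by 0.98 (adjusted p = 0.026), where 3.66% of all genes fell and 4.07% rose. With the replicate block 3 fell and 2 rose, since Ptpn2 was no longer called and Socs2 was. That model called 10.8% of all genes in either direction. Socs1, an inhibitor of JAK kinases, fell the most, from 15.2 ± 1.17 to 5.16 ± 0.69 CPM (log2 fold change -1.56, adjusted p = 9.5e-06). In DMEM, ruxolitinib lowered Socs1, with -1.76 (adjusted p = 0.00098), while in CM the difference was -0.26 (adjusted p = 0.29). The effect in CM minus that in DMEM was 1.499 (SE 0.27, adjusted p = 0.030).

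Of 15 genes known to respond to GM-CSF or STAT5, 13 were tested. In CM 12 rose and Fabp4, a lipid-binding protein, fell by 1.17 (adjusted p = 0.015), where 20.9% of all genes rose and 24.1% fell. The median was 4.39, with Ccl17 at its bound, beside -0.005 over all genes. Ccl17, a chemokine induced by GM-CSF, had 25.0 ± 6.77 CPM in CM and 0 counts in DMEM, at least 203.8-fold higher (adjusted p = 7.4e-05). Ruxolitinib in CM lowered 5 of 13 (Cish, Id1, Il1rn, Il4ra and Socs2) and raised none, with a median of -0.75, where 2.13% of all genes fell. With the replicate block 7 fell and 2 rose, where 6.02% of all genes were called in either direction. Ccl22, a chemokine of the same kind, had 113 ± 42.8 CPM in CM and 219 ± 44.1 CPM in CM + Rux, a difference of 0.95 that did not pass without the block (adjusted p = 0.073) and passed with it (0.99, adjusted p = 0.00057). With IKK-16 Ccl22 fell by 1.24 (adjusted p = 0.0090), 1 of 2 that fell, the other being Cish. Of all genes, 3.66% fell and 4.07% rose in that comparison. With the block 4 of the list fell and 3 rose, where 10.8% of all genes were called.

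Of 19 genes of the M-CSF and macrophage program, 6 rose and 6 fell in CM, where 20.9% of all genes rose and 24.1% fell. With the replicate block 7 rose, Mrc1 as well. The median without the block was -0.21 beside -0.005 over all genes. Cebpb, a transcription factor of activated macrophages, rose by 2.84 (adjusted p = 3.1e-07), and Ccnd1, a cyclin induced by M-CSF in growing macrophages, fell by 3.22 (adjusted p = 4e-05), from 53.7 ± 9.64 to 5.60 ± 2.54 CPM. Ruxolitinib in CM lowered Irf8 and Mrc1, 2 of 19 where 2.13% of all genes fell. With the block 5 were lower, where 6.02% of all genes were called in either direction. Mrc1, the mannose receptor, fell by 1.36 (adjusted p = 0.011), and Irf8, a transcription factor of the macrophage lineage, fell by 0.90 (adjusted p = 0.00012). With IKK-16 Ccnd1 rose by 2.08 (adjusted p = 0.0073), to 15.8 ± 10.5 CPM, and Acp5 and Mitf fell, Acp5 with -0.98 (adjusted p = 0.022), where 4.07% of all genes rose and 3.66% fell. With the block 3 rose and 3 fell, where 10.8% of all genes were called in either direction.

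The list of 15 cytokines and other genes that NF-κB is known to induce along with Csf2 and Csf3 rose as a whole in CM: 15 of 15 were called higher, with a median of 5.86 where the 4 genes of this list at the limit in DMEM are set to their bound, and of 6.52 as fitted. Of all genes tested, 20.9% rose in that comparison. The list was chosen with earlier results of these data known, so its count beside that share is a description only. Il6, an inflammatory cytokine, had 219 ± 111 CPM in CM and 0 counts in DMEM, at least 1782-fold higher. Ruxolitinib in CM raised 1 of 15, Lif, a cytokine of the IL-6 family, from 4.92 ± 3.37 to 26.8 ± 12.7 CPM, by 2.41 (SE 0.52, adjusted p = 0.016), with a median of 0.35, where 1.2% of all genes rose. With the block 3 rose, where 6.02% of all genes were called in either direction. With IKK-16, 11 of 15 fell and none rose, where 3.66% of all genes fell. With the replicate block 12 fell and none rose, where 10.8% of all genes were called in either direction. The median without the block was -1.24. Il23a, a subunit of IL-23, fell the most, with -3.20 (SE 0.995, adjusted p = 0.049), and Lif fell by 1.94 (adjusted p = 0.018), to 7.07 ± 5.24 CPM. Csf2 and Lif thus both rose with ruxolitinib in CM, fell with IKK-16 and were higher in the samples labelled 2 h. Lif rose by 1.38 there over CM + Rux (adjusted p = 0.047). Of the 15 genes, however, 6 fell and 2 rose at 2 h against CM + Rux, with a median of -0.61. Il6 fell the most, with -2.87, in a comparison that called 23.3% of all genes. With the block 6 fell and 1 rose, where 25.5% of all genes were called in either direction.

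Of 9 genes that set the decay of such mRNAs, 4 rose in CM, 5 with the replicate block, and none fell, where 20.9% of all genes rose and 24.1% fell. Their median was 0.49 beside -0.005 over all genes. Zc3h12a, the nuclease Regnase-1, rose from 39.7 ± 5.78 to 538 ± 55.0 CPM, by 3.76 (adjusted p = 8.8e-10). Ruxolitinib in CM lowered 1 of 9, where 2.13% of all genes fell: Zfp36l1, a binder of AU-rich repeats, with -1.15 (adjusted p = 0.045). With the replicate block, where 6.02% of all genes were called in either direction, 2 fell, the other being its relative Zfp36l2. With IKK-16, where 3.66% of all genes fell, Zfp36, the better known relative of both, fell by 1.16 (adjusted p = 0.017), from 613 ± 199.8 to 274 ± 109 CPM. In CM Zfp36 was at 618 ± 130.2 CPM.

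**Figure D5:**
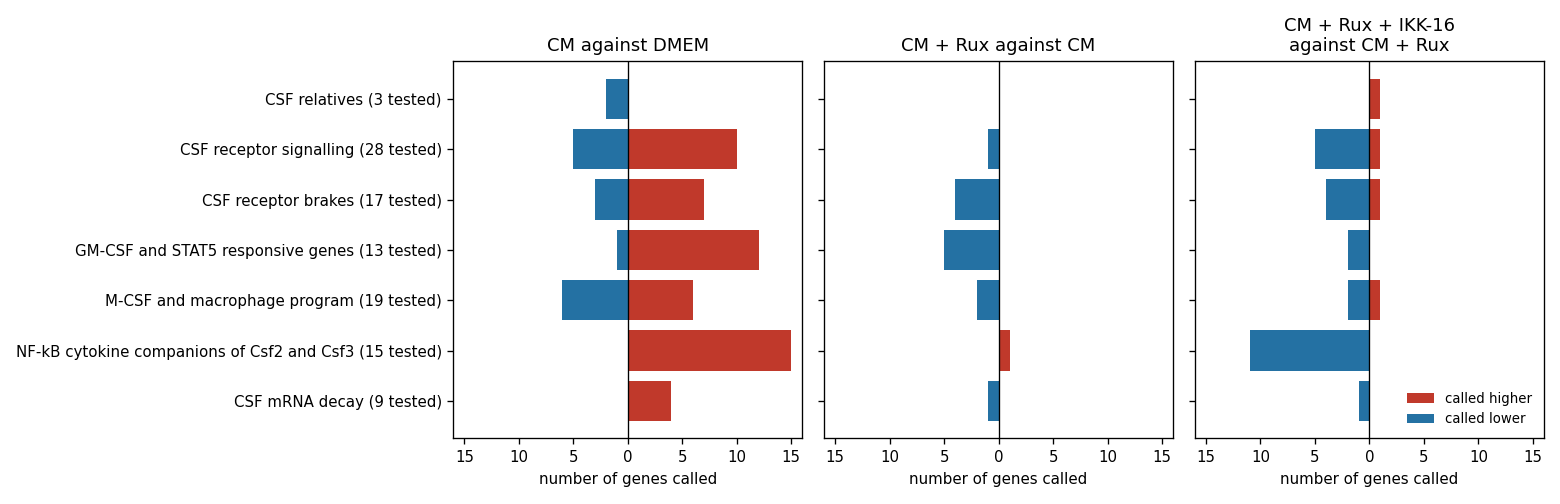
Bars count the genes of each list called higher (red, to the right) and lower (blue, to the left) in CM against DMEM, in CM + Rux against CM and with IKK-16 against CM + Rux. The 15 NF-κB companions are all to the right in the first panel, 1 is to the right in the second, and 11 are to the left in the third.

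By pattern over the 16 samples, as Pearson r of log2(CPM + 0.5), genes close to Csf1 included Tmem120b (0.982) and Cx3cl1 (0.975). Cx3cl1, the chemokine fractalkine, had 2.47 CPM in DMEM, 11.97 CPM in CM, 32.6 CPM in CM + Rux and 22.3 CPM with IKK-16, as means. Csf2 was most like Plscr1 (0.965), Trim36 (0.964) and Map3k5 (0.963). Map3k5, the stress kinase ASK1, had 26.3 CPM in CM, 47.8 CPM in CM + Rux, 22.0 CPM with IKK-16 and 126 CPM at 2 h. Csf3 was most like Sra1 (0.993), Upp1 (0.991) and Glrx (0.990).

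Among the receptors, Csf1r was most like Igf1 (0.953), Dock2 (0.951) and Celf2 (0.947), all higher in DMEM than in CM. Igf1, a growth factor made by macrophages, had 1075 CPM in DMEM and 428 CPM in CM. Csf2rb was most like Csf2rb2, Pmepa1 (0.998) and Emilin2 (0.997), and Csf2rb2 like Csf2rb, Emilin2 (0.997) and Chst11 (0.994). Csf3r was most like Dennd1a (0.941), Slamf1 (0.926) and Selp (0.917). Slamf1, a receptor of activated immune cells, had 10.5 CPM in CM and 1.01 CPM in CM + Rux. For Csf2ra the highest r, with Dpysl2, was 0.777, lower than for the other members. These values share the same libraries and groups and describe likeness of pattern only.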

How the data were processed

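RNA was taken from BMDMs and stranded libraries were sequenced in pairs. Per the labels and file headers, the authors trimmed reads with Trimmomatic 0.33, aligned them to GRCm38 with HISAT2 2.1.0 and counted fragments per Ensembl gene with featureCounts 1.6.2, with both ends mapped, a mapping quality of at least 10 and the reverse strand. The deposited table holds whole-number counts without scaling. Symbols came from GENCODE M21 (Ensembl 96) for 55141 of 55487 identifiers, whereas the authors counted on Ensembl 100. The 346 others held at most 0.0459% of a sample's counts. No 2 samples were copies: between replicates, chi-square over its degrees of freedom was 14.2 to 54.4.

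From these counts, edgeR 4.0.16 with limma 3.58.1 in R 4.3.3 (RLE scaling, CPM above 1 in at least 2 samples, 1 model of 6 groups and 16 samples) gave all tests. The scaling, filter and thresholds are those of the study's methods. TPM was computed from counts and the length in the table. CPM here uses the RLE-scaled totals. The genes named are the members, the listed relatives that passed the filter, the largest rise and fall of each list in each comparison, the 3 genes most like each member, and the leading and absent markers; any other list gene was singled out with its value known. The members and lists were chosen with earlier results of these data known. Groups and replicate numbers came from sample titles.

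Whether the numbers pair the samples was checked before calls were compared. Same-numbered samples of different groups deviated together over all genes in 34 of 35 pairs (r above 0.1, median 0.36), and in the groups compared every such r was at least 0.163. Of 71 pairs with different numbers, 1 was above 0.1 (median -0.12). The pairing comes from the numbers in the titles. In groups of 2 samples the 2 correlations are not independent. Alternatives were TMM scaling, total counts alone, no filter, filterByExpr, the replicate block, only the groups compared, DESeq2 1.42.0, leaving out each sample, and calls by adjusted p without a fold change limit. Leaving out the 2 h group, and the block together with each sample left out for Csf3, were added after seeing the data. The test was also tried on counts simulated from the group means and spread of these data. Python 3.11.15 with pandas 2.3.3 made the tables, and matplotlib 3.10.9 the figures. Promoters and motifs were read from the RefSeq table of GRCm38.p6 and 3′ UTRs from GENCODE transcripts. Some genes that these rules name are not reported here.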

Additional observations from a re-analysis of the deposited data

Results flagged for a closer look

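The effect of ruxolitinib on Csf1 differed between CM and DMEM, by a test of the difference itself: the effect in CM minus that in DMEM was 1.71 on the log2 scale (SE 0.34, adjusted p = 0.046 by edgeR's quasi-likelihood test). The call was lost in 11 of the alternatives tried and kept in 9, with the same direction in each. Csf1 was higher in 3 of 3 same-numbered pairs in CM and lower in 2 of 2 in DMEM. For Csf3r the same difference was -0.58 with the replicate number in the model (adjusted p = 0.026) and -0.61 without it (adjusted p = 0.12), and Csf3r was lower in 3 of 3 pairs in CM and in 2 of 2 in DMEM. Groups had 2 or 3 samples, too few for a check of single samples that stand apart.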

How the results depend on the processing

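Of the alternatives for single members, 819 kept direction and side of the threshold, 44 passed it newly, 12 lost it and 13 changed sign. Of the 12 losses, 11 were those of the Csf1 difference between ruxolitinib effects in CM and DMEM, which kept its call in 9 alternatives and lost it with only the groups compared (adjusted p = 0.064), without the 2 h group (0.059) and with 9 of 11 single samples left out. The limits are the 2 samples of DMEM and of the 2 h group, the few counts of Csf2, and the scaling, which moves CM against DMEM and CM + Rux against DMEM + Rux by 0.31 and 0.30. Where a left-out sample leaves 1 in a group, that sample is assumed to vary like the others. The cause of the changes below was not tested.

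For CM + Rux against CM, 412 genes were called, 685 without the filter, 745 with the replicate block, and 243 to 486 with a sample left out, and 3 to 5 members were called then. With IKK-16 against CM + Rux, 957 genes became 1778 without a fold change threshold, and the 1 member called became 2 with the block and 0 with only the groups compared or without the 2 h group, where Csf2 failed the filter. The effect of ruxolitinib in CM minus that in DMEM gave 51 genes, 90 by total counts alone, 349 without the filter, 444 with the block, 237 by DESeq2 and 17 to 114 with a sample left out. Its 1 member became 2 without the filter, with the block and by DESeq2, 0 with only the groups compared and without the 2 h group, and 0 to 1 with a sample left out. CM + Rux + IKK-16 against CM gave 1575 genes and 2857 without a fold change threshold, and 2 to 3 members with a sample left out. The 2 h group against CM + Rux gave 2883 genes and 4726 without a fold change threshold. Its 1 member became 4 without that threshold, 2 by total counts alone, without the filter and with the block, and 1 to 3 with a sample left out. Beside the calls given with the replicate block in the report, the block changed no other member's call.

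Signs turned for these values, none of which was called without the block. For CM + Rux against CM, Csf3 ranged from -1.58 to 0.070 with a sample left out (0.070 without CM replicate 2) and Csf1r from -0.011 (without CM + Rux replicate 2) to 0.063. With IKK-16, Csf2rb ranged from -0.013 (without its replicate 2) to 0.225. In DMEM + Rux against DMEM, Csf1 was at 0.039 and 0.0030 without DMEM + Rux replicates 1 and 2, and at -0.451 without replicate 3, and Csf3r at -0.236 to 0.16, the last without DMEM replicate 2 and at 0.034 without DMEM + Rux replicate 1. In CM + Rux against DMEM + Rux, Csf2ra was at -0.0098 with TMM, -0.29 by total counts alone and -0.011 without CM + Rux replicate 1 (at most 0.024 without another sample), and Csf3r at -0.19 by total counts alone. In the 2 h group against CM + Rux, Csf2ra was at -0.0014 by total counts alone and -0.046 without 2 h replicate 2, and at 0.168 without replicate 3.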
